A study of Mus musculus with 6 samples.

Results

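The Hox genes of the mouse, all members of clusters A to D, were described in fibroblasts taken from 3 places in the body. Members were chosen by symbol alone, as protein-coding genes named Hox with a cluster letter and a paralogue number, which gave 39 of the 57180 gene identifiers in the count table. Antisense and host RNAs of the clusters were left out of the members. Cluster A holds 11 members, cluster B 10, cluster C 9 and cluster D 9, on mouse chromosomes 6, 11, 15 and 2 in that order (GRCm38 annotation).

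Hox genes encode homeodomain transcription factors that give cells their position along the body axis and the limbs. Within a cluster the genes stand in the order of their paralogue numbers, and in the embryo low numbers are used from the hindbrain backwards while high numbers are used in the trunk end, the limb tips and the tail. Cultured adult fibroblasts are known to keep a Hox pattern that reflects the site they came from.

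Polyadenylated RNA was sequenced from lung, cardiac and tail tip fibroblasts grown in DMEM with 10% FBS. Cells of each origin received one of 2 adenoviruses, Ad-GFP as the control, which carries a fluorescent marker, or Ad-Cre, which carries the Cre recombinase and is called the GATA4 knockout by the submitters, and RNA was taken after 48 h. All 6 groups, 3 origins by 2 viruses, carry the genotype label WT, and each is 1 library. The labels do not give the strain, the age, the number of animals, the floxed allele or the part of Gata4 to be removed, nor whether libraries came from separate cultures.

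Total counts were between 26170316 and 33779069 per library. Gata4, the labelled target, had 4769 reads in the cardiac Ad-GFP library and 4561 in the cardiac library labelled Ad-Cre, 428 and 492 in lung, and 1 and 2 in tail tip. As CPM, counts scaled to a common library total, these are 146.5 and 149.1 in cardiac and 14.7 and 19.2 in lung, so Gata4 was not lower in the libraries labelled Ad-Cre, and "Ad-Cre library" in what follows means the library labelled Ad-Cre. A count over the whole gene does not check the removal of a part of it. The 8 fibroblast markers were read in every library but not in one order: Col1a1 was lowest in lung (1082 and 1619 CPM, up to 8635 elsewhere), while Dcn (88.5 and 51.0 CPM) and Lum (2.89 and 1.11) were lowest in cardiac cells. The 10 macrophage markers summed to 18.3 and 14.7 CPM in lung, 235.8 and 150.5 in cardiac and 1443 and 1182 in tail tip. The part of these markers in the Hox results was not tested.

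Paralogue group 13 has a member in each of the 4 clusters, of which Hoxa13, Hoxb13 and Hoxc13 were higher in tail tip than in lung and Hoxd13 was hardly read in either. The stretch of DNA that makes them relatives, the homeobox, is shown for that reason. Each line is the 180-base homeobox on the coding strand, read from GENCODE M21 transcripts, and capitals mark the 18 bases (6 codons) for the conserved core of the recognition helix, the part of the homeodomain that lies in the major groove of DNA.
Hoxa13: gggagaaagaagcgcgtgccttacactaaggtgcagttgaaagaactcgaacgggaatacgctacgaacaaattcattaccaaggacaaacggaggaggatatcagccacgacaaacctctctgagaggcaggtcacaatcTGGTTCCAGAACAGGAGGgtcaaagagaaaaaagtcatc
Hoxb13: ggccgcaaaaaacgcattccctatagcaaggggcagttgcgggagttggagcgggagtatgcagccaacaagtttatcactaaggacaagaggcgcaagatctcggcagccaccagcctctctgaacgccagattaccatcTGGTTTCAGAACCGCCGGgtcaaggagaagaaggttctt
Hoxc13: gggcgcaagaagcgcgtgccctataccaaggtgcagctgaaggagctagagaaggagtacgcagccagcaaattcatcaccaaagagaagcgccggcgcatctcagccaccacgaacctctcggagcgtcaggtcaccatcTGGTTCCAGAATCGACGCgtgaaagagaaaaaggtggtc
Hoxd13: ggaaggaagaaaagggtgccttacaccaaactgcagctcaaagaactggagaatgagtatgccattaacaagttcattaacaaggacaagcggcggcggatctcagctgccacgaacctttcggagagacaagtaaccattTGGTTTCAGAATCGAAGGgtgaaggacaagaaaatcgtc

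Even in this most alike part, the group 13 members differed at 41 (Hoxa13 and Hoxc13) to 59 bases (Hoxb13 and Hoxd13). Over the 39 members the median homeobox identity was 80.6% for the 42 pairs of the same paralogue group and 60.6% for the other pairs, and the most alike pair was Hoxa3 and Hoxb3 at 93.9%. A read of 50 bases could be shared with another member for 9 of the 39 members, over 0.0389% (Hoxb9) to 11.3% (Hoxd4) of its 50-base words. None of the 50-base words of Hoxa13, Hoxb13, Hoxc13, Hoxd13, Hoxc11 or Hoxc12 occurred in a transcript of another gene. Hoxb3 shared 51.4% of its words with Hoxb3os, Hoxa11 33.0% with Hoxa11os and Hoxb2 25.9% with Hoxb3os, which lie on the opposite strand. In all, 10 members overlap a gene on the opposite strand. Among them are Hoxa3, Hoxa7 (18.7% of its words shared with Hoxaas3) and Hoxa4 (13.3% with Gm29430). The strand setting of the count is not given in the sources used here, so reads of these members and of their antisense partners cannot be told apart. Hoxc5 and Hoxc10 share an exon stretch of 166 bases on the same strand, which the counting may have split. Hoxd3 shared 60.3% and Hoxd4 46.8% of its words with other genes, the largest part with Gm28230. This protein-coding gene lies on the same strand and overlaps 53.1% of the Hoxd3 and 39.1% of the Hoxd4 exons. Reads over that overlap may not have been counted for either member. The same holds for Hoxa2 and Hoxa3, which overlap the protein-coding Gm28308 on their strand over 15.0% and 8.0% of their exons.

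The members fell into 3 patterns by origin. Lung fibroblasts had most of their summed Hox level per length in groups 4 to 8 (60.6% in the Ad-GFP and 60.2% in the Ad-Cre library). Hoxa9, Hoxa10, Hoxb9, Hoxb13 and Hoxc9 were read there as well. Tail tip fibroblasts had most of it in groups 9 to 13 (78.8% and 79.6%), with lower groups also read. Cardiac fibroblasts had hardly any Hox reads. At 1 CPM or more, 21 members were read in each lung library and 27 in each tail tip library. The cardiac libraries had 1 such member in the Ad-GFP library and 4, with Hoxb4, Hoxc13 and Hoxd13 among them, in the Ad-Cre library. Summed over the 39 members, the level per length was 107.5 and 119.1 CPM per kilobase of exon in lung, 186.2 and 172.7 in tail tip and 2.19 and 3.70 in cardiac libraries (Ad-GFP first, then Ad-Cre, as in all pairs of values that follow). In bulk RNA, fewer cells of a type and less RNA per cell cannot be told apart, here and in all that follows.

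**Figure D1:**
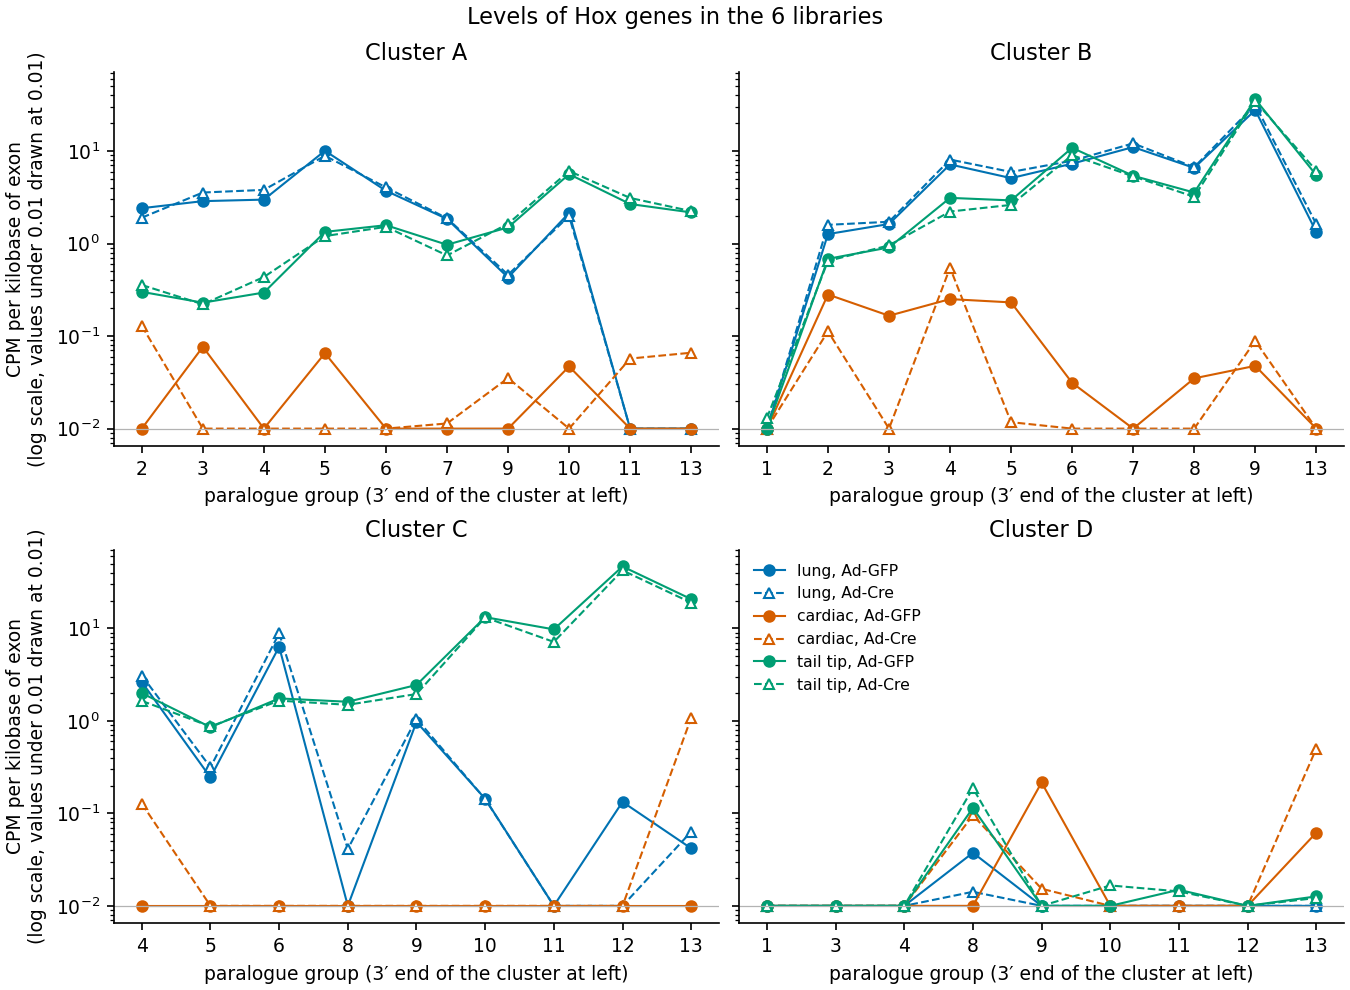
Levels of the Hox genes described in the text in the 6 libraries, in CPM per kilobase of exon on a log scale, by paralogue group within each cluster; values under 0.01 are drawn at 0.01, filled circles are Ad-GFP and open triangles Ad-Cre libraries. The lung and tail tip profiles cross in clusters A, B and C, with much the same summed level in cluster B. Cluster D is low, with its highest point at Hoxd13 in the cardiac Ad-Cre library (0.5005 CPM per kilobase).

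The split by paralogue class shows where the origins part. Groups 9 to 13, the posterior genes, summed to 146.8 and 137.5 CPM per kilobase in tail tip and to 33.0 and 37.2 in lung. That was 78.8% and 79.6% of the summed Hox level in tail tip and 30.7% and 31.2% in lung. Groups 4 to 8, the trunk genes, summed to 65.2 and 71.7 CPM per kilobase in lung and to 36.4 and 32.2 in tail tip. Groups 1 to 3, the genes of the hindbrain and neck, gave 9.35 and 10.2 in lung, 3.04 and 2.99 in tail tip and 1.21 and 1.05 in cardiac libraries. The lung and tail tip values did not overlap in any class, which with 2 libraries of each origin is a description only. Between these origins 28.2% of all tested genes were higher in tail tip and 22.3% lower at an edgeR adjusted p under 0.05. The share of all genes without overlap was not counted.

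**Figure D2:**
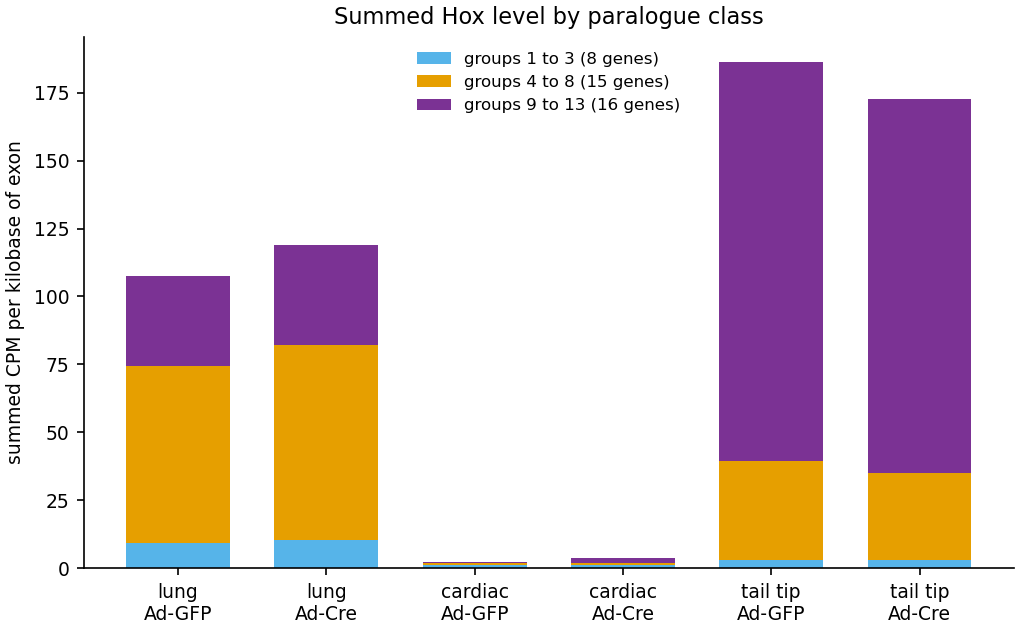
Summed CPM per kilobase of exon of the Hox genes in each library, stacked by paralogue class. Groups 9 to 13 make up 78.8% and 79.6% of the tail tip bars and 30.7% and 31.2% of the lung bars, and the cardiac bars reach 2.19 and 3.70.

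Cluster C differed most between lung and tail tip. Its summed level was 99.1 and 89.2 CPM per kilobase in tail tip, 10.5 and 13.6 in lung, and 0.00 and 1.20 in cardiac libraries. In tail tip it was 53.2% and 51.7% of all Hox signal, in lung 9.77% and 11.4%. The cluster has no members below group 4, and its posterior end is known from the hind body, the tail and the hair follicle.

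Hoxc12 (ENSMUSG00000050328), a posterior gene near the 5′ end of the cluster, had 1532 and 1448 reads in tail tip, 4 and 0 in lung, and 0 and 0 in cardiac libraries. Hoxc13 (ENSMUSG00000001655), known for its role in hair and nail, had 1622 and 1545 reads in tail tip, 3 and 4 in lung, and 0 and 81 in cardiac libraries. Both were high in both tail tip libraries only, apart from the 81 reads of Hoxc13. Hoxc11 had 627 and 478 reads in tail tip and 0 in each of the 4 other libraries. Hoxc10, a gene of the lumbar level and the hind limb, had 803 and 830 reads in tail tip, 8 and 7 in lung and 0 and 0 in cardiac. Per length Hoxc12 was the highest Hox gene of tail tip, at 46.7 and 42.4 CPM per kilobase, ahead of Hoxb9 at 36.4 and 34.7 and Hoxc13 at 20.7 and 19.0.

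The 3′ members of cluster C had other orders. Hoxc6, a gene of the thoracic level, had 445 and 547 reads in lung, 134 and 132 in tail tip and 0 and 0 in cardiac libraries. Hoxc8, its next neighbour on the 5′ side, had 0 and 3 reads in lung and 145 and 140 in tail tip, and 0 and 0 in cardiac. Thus these neighbours took opposite orders in lung and tail tip. Hoxc9 had 69 and 66 reads in lung, 189 and 157 in tail tip and 0 and 0 in cardiac. Hoxc4 had 197 and 204 in lung, 163 and 140 in tail tip and 0 and 10 in cardiac, and Hoxc5 22 and 25, 84 and 89, and 0 and 0. At 1 CPM or more the cluster was read in lung at groups 4, 6 and 9, with Hoxc5 just under that level (0.755 and 0.974 CPM) and group 8 near 0, and in tail tip at each of its 9 members.

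Cluster A showed the crossing of the profiles most plainly, since it holds members of nearly every group. Hoxa3 (ENSMUSG00000079560), which acts in the pharyngeal pouches and neck, had 505 and 551 reads in lung, 44 and 44 in tail tip and 15 and 1 in cardiac libraries. Hoxa5, needed for lung development, had 552 and 429 reads in lung, 80 and 75 in tail tip and 4 and 0 in cardiac. Both were lower in each tail tip library than in either lung library. Hoxa2 had 125 and 87 reads in lung, 17 and 21 in tail tip and 0 and 7 in cardiac. Hoxa4 had 139 and 156 in lung, 15 and 23 in tail tip and 0 and 0 in cardiac. Hoxa6 (95 and 91 reads in lung, 44 and 44 in tail tip) and Hoxa7 (155 and 139 in lung, 89 and 71 in tail tip) stood lower in tail tip by smaller margins, with 0 or 1 read in cardiac.

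From group 9 upwards the order turned. Hoxa9 had 266 and 303 reads in tail tip, 70 and 66 in lung and 0 and 6 in cardiac libraries. Hoxa10, a gene of the lower trunk and the uterus, had 586 and 660 reads in tail tip, 205 and 167 in lung and 5 and 0 in cardiac. Hoxa11, which patterns the middle segment of the limb, had 195 and 236 reads in tail tip, 0 and 0 in lung and 0 and 4 in cardiac. Hoxa13 (ENSMUSG00000038203), of the limb tips and the hindgut end, had 171 and 184 reads in tail tip, 0 and 0 in lung and 0 and 5 in cardiac. The lung libraries thus had reads up to group 10 of cluster A and none beyond it, and a count of 0 there allows up to 0.103 and 0.117 CPM.

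Cluster B was read at much the same summed level in lung (69.3 and 77.5 CPM per kilobase) and tail tip (69.4 and 64.9), and at 1.05 and 0.769 in cardiac libraries. Hoxb9 (ENSMUSG00000020875), a thoracic gene, led it with 2086 and 2103 reads in lung, 2981 and 2957 in tail tip and 4 and 7 in cardiac. Per length it was the highest Hox gene of lung, at 27.8 and 31.8 CPM per kilobase, ahead of Hoxb7 (11.1 and 12.1) and Hoxa5 (10.1 and 8.90). Hoxb13, at the far end of the cluster and known from the tail bud and the prostate, had 386 and 450 reads in tail tip, 86 and 92 in lung and 0 and 0 in cardiac. It was the only member of group 13 above 1 CPM in lung.

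The middle of cluster B was read in both lung and tail tip. Hoxb4 had 537 and 534 reads in lung, 255 and 189 in tail tip and 21 and 43 in cardiac libraries. Hoxb5 had 415 and 426 in lung, 260 and 242 in tail tip and 21 and 1 in cardiac, and Hoxb6 had 419 and 397, 679 and 588, and 2 and 0. Hoxb7 had 498 and 481 reads in lung, 266 and 273 in tail tip and none in cardiac libraries. Hoxb8 had 506 and 454 in lung, 299 and 280 in tail tip and 3 and 0 in cardiac. Of the low groups, Hoxb2 had 129 and 143 reads in lung, 76 and 75 in tail tip and 32 and 12 in cardiac, and Hoxb3 202 and 188, 123 and 135, and 23 and 1. Hoxb1 had 1 read in all, in the tail tip Ad-Cre library. Hoxb6 and Hoxb9 stood above their lung values in tail tip, and the other members of groups 2 to 8 below them.

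Cluster D was hardly read. Its 9 members had 3 and 1 reads in lung, 14 and 21 in tail tip and 20 and 48 in cardiac libraries, in sum. Hoxd1, Hoxd4 and Hoxd12 had no read in any library, and Hoxd3, Hoxd10 and Hoxd11 had at most 2 in a library. For Hoxd3 and Hoxd4 the counts may miss reads over the exons that overlap Gm28230. Hoxd8 had up to 17 reads, in the tail tip Ad-Cre library, and Hoxd9 15 and 1 in the cardiac libraries and 0 elsewhere. Hoxd13 (ENSMUSG00000001819), the digit gene, reached 1.24 CPM in the cardiac Ad-Cre library (38 reads) against 5 reads in the cardiac Ad-GFP library, 0 and 0 in lung and 1 and 1 in tail tip. In tail tip the other members of group 13 had 171 or more reads in each library, so its low count set cluster D apart from A, B and C within that paralogue group.

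The upstream DNA of Hoxa13, read in tail tip, and of Hoxd13, near 0 there, is shown to set these relatives side by side. Both lines are the 250 bases before the RefSeq start (GRCm38.p6), on the strand of the gene, with each CG dinucleotide in capitals. The Hoxa13 window is chr6:52260881-52261130 on the minus strand and the Hoxd13 window is chr2:74667975-74668224 on the plus strand.
Hoxa13: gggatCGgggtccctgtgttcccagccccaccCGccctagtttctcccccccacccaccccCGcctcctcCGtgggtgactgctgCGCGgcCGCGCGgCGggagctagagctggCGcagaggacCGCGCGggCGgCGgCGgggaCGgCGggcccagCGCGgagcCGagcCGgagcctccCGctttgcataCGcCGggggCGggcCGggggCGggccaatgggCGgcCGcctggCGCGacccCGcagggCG
Hoxd13: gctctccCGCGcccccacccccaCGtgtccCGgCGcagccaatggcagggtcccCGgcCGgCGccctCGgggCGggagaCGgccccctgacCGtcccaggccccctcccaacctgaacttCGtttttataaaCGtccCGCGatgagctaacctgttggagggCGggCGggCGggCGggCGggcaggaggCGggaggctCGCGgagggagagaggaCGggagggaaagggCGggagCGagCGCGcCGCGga

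Both windows are dense in CG, with 35 in Hoxa13 and 31 in Hoxd13, against a median of 6 over 32851 RefSeq windows of the same length. RefSeq windows matched 22 of the 39 members (24 windows), whose median was 12.5. The 10 windows of the hardly read cluster D had a median of 12.5 CG and the 10 of cluster A 15.5, with ranges of 2 to 31 and 3 to 35 that overlap almost wholly. The letters TATAAA, searched on both strands, occur in the Hoxd13 window and not in the Hoxa13 window, and in 12.4% of all windows. These counts describe the letters only.

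The origins were compared with edgeR's quasi-likelihood test with terms for origin and for virus fitted to the 6 libraries together. In this fit the Ad-GFP and Ad-Cre libraries of an origin take the place of replicates. The p-values therefore measure only the spread between these libraries, which may be technical, and the 3 comparisons share libraries. Of the 39 members 29 had enough reads to be tested (11 of cluster A, 9 of B, 9 of C and none of D). Most of these passed the filter through lung or tail tip alone, so that they had to differ from cardiac cells. Their counts are a description, and their p-values against cardiac cells lend no support.

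Against cardiac fibroblasts, tail tip fibroblasts had 27 of the 29 tested members higher and none lower at adjusted p under 0.05. Of all 18143 genes tested, 18.0% were higher and 15.5% lower in this comparison. The tested members had a median log2 fold change of 7.15 (6.43 with genes at 0 in cardiac cells set to their bound), against 0.06 for all genes. Hoxb9 was higher by 9.0 ± 0.28 SE on the log2 scale (edgeR adjusted p = 1.22e-05). Hoxb6 was higher by 9.10 ± 0.52 (adjusted p = 4.13e-05) and Hoxa10 by 7.87 ± 0.61 (adjusted p = 0.000121). Hoxb9, Hoxb6 and Hoxa10 had few cardiac reads, and these p-values lend no support. Where both cardiac libraries had 0 reads the fold is a lower bound, computed against 3 counts over the group: at least 966-fold for Hoxc12, 529-fold for Hoxc10, 358-fold for Hoxc11, 271-fold for Hoxb13, 175-fold for Hoxb7 and 28.5-fold for Hoxa6. Hoxc13, with its 81 cardiac Ad-Cre reads, was higher by 5.66 ± 0.98 (adjusted p = 0.00475), and its adjusted p was 0.375 or 0.374 without either lung library. Hoxa2 did not pass (2.42 ± 1.01, adjusted p = 0.103). Under DESeq2, Hoxa11 and Hoxa13 did not pass (adjusted p = 0.0946 and 0.18), nor did Hoxc11, and without either tail tip library Hoxb2 did not (adjusted p = 0.0979 and 0.132).

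Lung fibroblasts had 22 of the 29 tested members higher than cardiac fibroblasts and none lower, where 17.6% of all tested genes were higher and 20.8% lower. Of the tested members of groups 4 to 8, 12 of 13 were higher, of groups 1 to 3, 4 of 5, and of groups 9 to 13, 6 of 11. The tested members had a median log2 fold change of 6.08, or 5.54 with bounds, against 0.01 for all genes. Hoxb9 was higher by 8.75 ± 0.28 SE on the log2 scale (edgeR adjusted p = 7.72e-06), Hoxb6 by 8.71 ± 0.52 (adjusted p = 4.36e-05) and Hoxa5 by 8.07 ± 0.61 (adjusted p = 0.000113). Here too the cardiac reads were few and the p-values lend no support. Bounds against 0 cardiac reads were at least 381-fold for Hoxc6, 376-fold for Hoxb7, 113-fold for Hoxa4, 71.4-fold for Hoxa6, 68.3-fold for Hoxb13, 51.8-fold for Hoxc9 and 18.04-fold for Hoxc5. Among the tested members that did not pass were Hoxa11, Hoxa13, Hoxc8, Hoxc11, Hoxc12 and Hoxc13, each of which had at most 4 reads in any lung library. Hoxc13 and the untested Hoxd13 had more reads in cardiac Ad-Cre cells than in lung, and both were called lower in lung without the filter on low counts or without either tail tip library. Without the cardiac Ad-GFP library Hoxa11 and Hoxa13 were called lower in lung too, and without the cardiac Ad-Cre library Hoxd9 was.

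Between tail tip and lung, 10 of the 29 tested members were higher in tail tip and 8 lower, where 28.2% of all tested genes were higher and 22.3% lower. The count itself is therefore near the background. Of 11 tested members of groups 9 to 13, 9 were higher (Hoxa9, Hoxa10, Hoxa11, Hoxa13, Hoxb13, Hoxc10, Hoxc11, Hoxc12 and Hoxc13) and none lower. Hoxa11, Hoxa13, Hoxc10, Hoxc11, Hoxc12 and Hoxc13, and also Hoxc8, had at most 8 reads in a lung library and passed the filter through tail tip, so that they had to be higher there, and the count over this class is a description only. Hoxa9, Hoxa10 and Hoxb13 had 66 or more reads in each lung library. The remaining 2, Hoxb9 and Hoxc9, had log2 fold changes of 0.26 ± 0.17 SE (edgeR adjusted p = 0.235) and 1.11 ± 0.42 (adjusted p = 0.0698). Of 13 tested members of groups 4 to 8, 6 were lower (Hoxa4, Hoxa5, Hoxb4, Hoxb7, Hoxb8 and Hoxc6) and Hoxc8 was higher. Of 5 in groups 1 to 3, Hoxa2 and Hoxa3 were lower. The median log2 fold change was 6.50 for the tested members of groups 9 to 13, -1.11 for groups 4 to 8 and -1.12 for groups 1 to 3, against 0.06 for all genes, and the first of these rests on members with few or no lung reads.

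**Figure D3:**
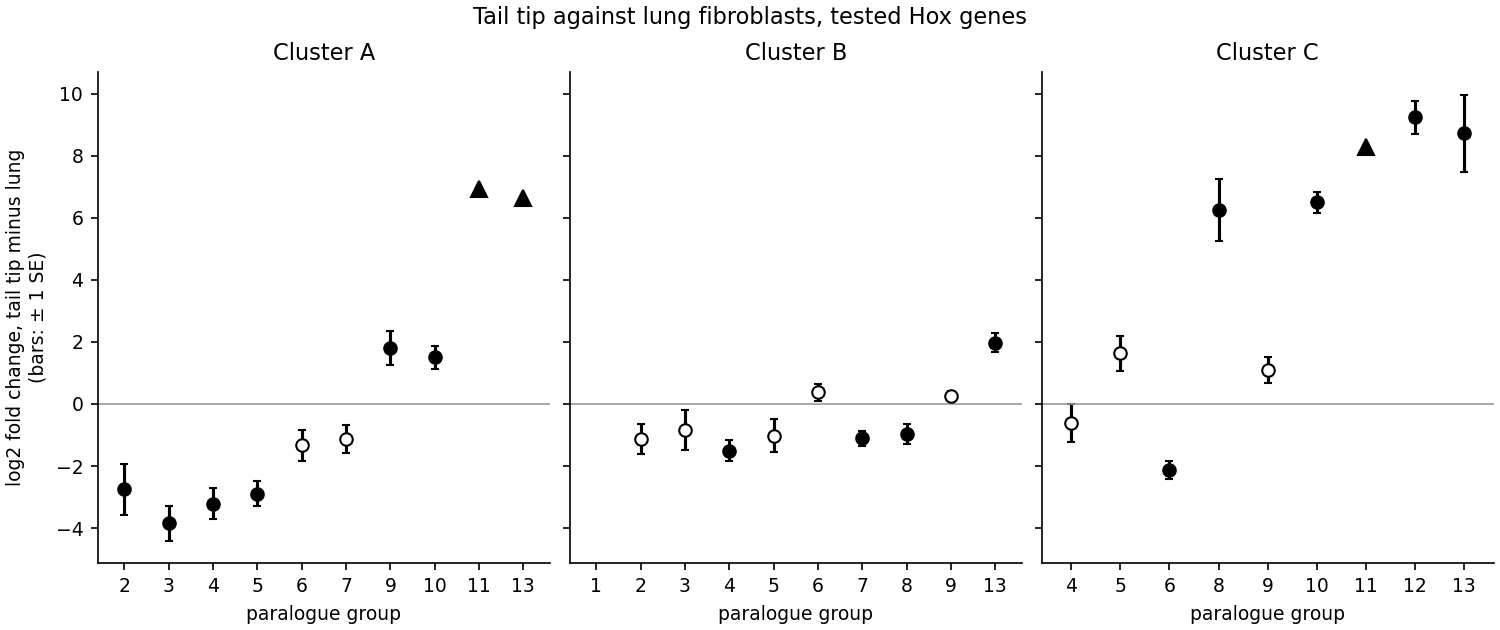
Log2 fold change of the tested Hox genes described in the text, tail tip minus lung, by paralogue group in clusters A, B and C; bars are ± 1 SE, filled circles passed the test, open circles did not, and triangles are lower bounds for genes with 0 reads in lung. In each cluster the values at group 13 are above 0, and in cluster A the values of groups 2 to 7 are below 0.

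Among members with reads in both origins, the largest log2 fold changes lay in cluster C. Hoxc12 was higher in tail tip by 9.25 ± 0.54 SE on the log2 scale (edgeR adjusted p = 4.36e-05), Hoxc13 by 8.73 ± 1.25 (adjusted p = 0.00106) and Hoxc10 by 6.50 ± 0.34 (adjusted p = 3.13e-05). These members, and Hoxc8, had few lung reads and passed the filter through tail tip. They had to be higher there, so their p-values lend no support. The 95% counting interval of the ratio was 245 to 2310 for Hoxc12, 185 to 951 for Hoxc13 and 55.6 to 165 for Hoxc10. Hoxc11, with 0 reads in lung, was at least 311-fold higher. Hoxc13 did not pass without either lung library (adjusted p = 0.413 and 0.416). Hoxc8 was higher by 6.27 ± 0.99 (adjusted p = 0.00256), a ratio of 80.2 with a 95% counting interval from 27.2 to 391, and under DESeq2 its adjusted p was 0.0794. Hoxc6 went against its cluster, lower in tail tip by 2.14 ± 0.29 (log2 fold change -2.14, adjusted p = 0.00146).

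In cluster A the sign of the difference followed the order of the genes. Hoxa3 was lower in tail tip (log2 fold change -3.85 ± 0.55 SE, edgeR adjusted p = 0.00108), as were Hoxa4 (-3.22 ± 0.50, adjusted p = 0.00251) and Hoxa5 (-2.90 ± 0.40, adjusted p = 0.000902). Hoxa6 and Hoxa7 had -1.32 and -1.12 and did not pass (adjusted p = 0.069 and 0.0751). Hoxa9 was higher (1.81 ± 0.54, adjusted p = 0.027) and Hoxa10 too (1.51 ± 0.38, adjusted p = 0.0135). Hoxa9 did not pass without the lung Ad-Cre or the tail tip Ad-GFP library (adjusted p = 0.109 and 0.217), and Hoxa10 not without the tail tip Ad-Cre library (0.12). Hoxa2 did not pass without the lung Ad-GFP library (0.319). Hoxa11 was at least 121-fold and Hoxa13 at least 99.9-fold higher in tail tip. The sign of the fold change turned once along the cluster, between Hoxa7 and Hoxa9.

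In cluster B the differences were smaller and did not follow the order of the genes, with Hoxb6 (log2 fold change 0.38) above 0 between Hoxb5 (-1.02) and Hoxb7. Hoxb5 and Hoxb6 did not pass. Hoxb13 was higher in tail tip (log2 fold change 1.98 ± 0.30 SE, edgeR adjusted p = 0.00236), against its cluster's lower calls. Hoxb4 was lower (-1.50 ± 0.35, adjusted p = 0.00961), as were Hoxb7 (-1.11 ± 0.24, adjusted p = 0.0103) and Hoxb8 (-0.98 ± 0.32, adjusted p = 0.038). Hoxb7 and Hoxb8 did not pass when any of the 4 lung and tail tip libraries was left out, and Hoxb4 not without the tail tip Ad-Cre library. With either cardiac library left out, more members passed in both directions. The share of all tested genes that passed in those fits was not counted, so this cannot be read as a result about the members. The members added were Hoxa6, Hoxa7, Hoxb2, Hoxb3, Hoxb5 and Hoxc4 among the lower, and Hoxc5, Hoxc9, Hoxd8 and, without the Ad-GFP library, Hoxb6 among the higher. The macrophage markers, at 1443 and 1182 CPM in tail tip against 18.3 and 14.7 in lung, move with this comparison, and their part in it was not tested.

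Over the 3 origins no tested member differed between Ad-Cre and Ad-GFP libraries (0 of 29, where 0 of all tested genes were called, 0%, edgeR adjusted p under 0.05). At an unadjusted p under 0.05 no tested member and 367 genes (2.02%) were found, and DESeq2 called no member. Within an origin there is 1 library on each side and no test. Among members with at least 50 reads in a library, the counting interval of the Ad-Cre to Ad-GFP ratio held 1 for 16 of 21 in lung and 19 of 25 in tail tip, with ratios from 0.790 to 1.40 and from 0.712 to 1.16. Over all tested genes that met the same minimum the shares were 45.7% in lung and 61.9% in tail tip. That minimum sets no upper limit, and counting intervals narrow as reads rise, so these shares cannot rank members against other genes. The median absolute log2 ratio in lung was 0.179 for these members and 0.169 for all tested genes above the minimum. In tail tip it was 0.140 for the members and 0.108 for all. Without either tail tip library edgeR called Hoxc13 higher in Ad-Cre libraries, the only member called under any alternative.

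**Figure D4:**
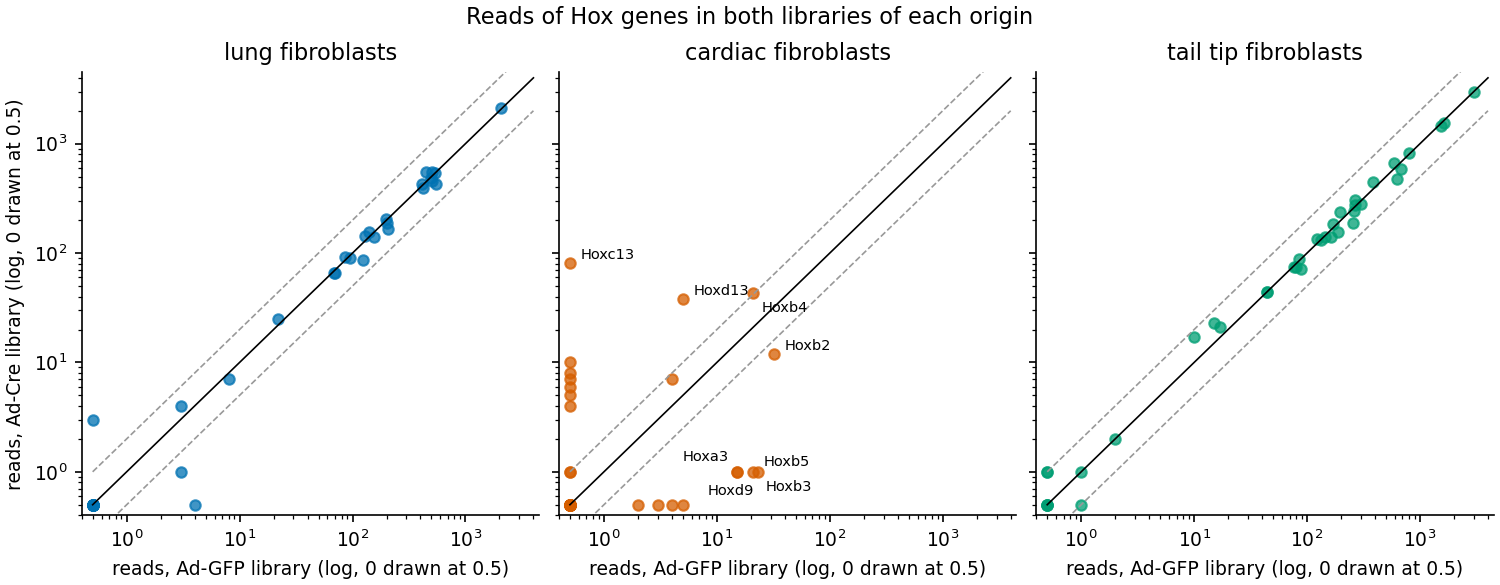
Reads of the Hox genes described in the text in the Ad-GFP library (x axis) and the Ad-Cre library (y axis) of each origin, on log axes with 0 drawn at 0.5; the solid line marks equal reads and the dashed lines 2-fold. Lung and tail tip points of more than 50 reads lie within the dashed lines, while cardiac points scatter, with Hoxc13 at 0 and 81 reads.

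A few lung and tail tip members had intervals that left out 1. In lung these were Hoxc6 with a ratio of 1.40 (95% counting interval 1.23 to 1.59), Hoxa4 with 1.27 (1.01 to 1.61), Hoxa3 with 1.24 (1.10 to 1.40), Hoxb5 with 1.17 (1.02 to 1.34) and Hoxb9 with 1.15 (1.08 to 1.22). The lowest lung ratio was that of Hoxa2, 0.790 (0.594 to 1.05). In tail tip, Hoxb4 had a ratio of 0.712 (0.587 to 0.863), Hoxc11 0.732 (0.649 to 0.826), Hoxc9 0.798 (0.641 to 0.991) and Hoxb6 0.832 (0.743 to 0.930). Hoxc12 had 0.908 (0.844 to 0.976) and Hoxc13 0.915 (0.853 to 0.981), the other two whose interval left out 1. Hoxa7 had 0.766 (0.553 to 1.06), an interval that holds 1. These intervals cover counting error only, and none of these ratios reached 2-fold. At 2-fold or more, on log2 ratios with a prior count of 2, 2 members differed in lung, Hoxc8 with 0 and 3 reads and Hoxc12 with 4 and 0 (2 of 29 tested, where 7.26% of all tested genes did) and none in tail tip (3.30%).

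In cardiac cells 17 of the 39 members differed at least 2-fold between the 2 libraries, 14 of them among the 29 tested, where 20.6% of all tested genes did. Of the 17, 9 were higher and 8 lower in the Ad-Cre library, and only Hoxb4, Hoxc13 and Hoxd13 reached 1 CPM in either library. Of the 29 tested members 7 were higher and 7 lower, where 11.5% of all tested genes were higher and 9.10% lower. Most members had few cardiac reads, so their share cannot be ranked against that of all genes. Hoxc13 had 0 reads in the Ad-GFP and 81 in the Ad-Cre library, at least 28.8-fold higher. Hoxd13 had 5 and 38 reads, a ratio of 8.09 (95% counting interval 3.18 to 26.3), and Hoxb4 21 and 43, a ratio of 2.18 (1.27 to 3.87). Hoxa11 had 0 and 4 reads and Hoxa13 0 and 5, while Hoxc12, the neighbour of Hoxc13, had 0 and 0.

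Others were at their low level in the Ad-GFP library and lower still in the Ad-Cre library. Hoxb5 had 21 and 1 reads, a ratio of 0.051 (0.001 to 0.315), Hoxb3 23 and 1, Hoxa3 15 and 1, Hoxd9 15 and 1, and Hoxb2 32 and 12. A pair of 0 against 20 or more reads was found for 116 of the 18143 tested genes between the cardiac libraries, for 2 between the lung and for none between the tail tip libraries. Hoxc13 was the only member among the 116. The cardiac libraries also differed in epithelial genes: the 11 keratinocyte and epithelial markers summed to 14.4 CPM in the Ad-GFP and 145.2 CPM in the Ad-Cre library, with Krt18 at 67 and 1075 reads, Krt5 at 0 and 18, Krt14 at 0 and 10 and Trp63 at 0 in both. The 6 mesothelial markers, which share Krt19 with that list, summed to 61.3 and 132.3 CPM, with Upk3b at 95 and 878 reads, Upk1b at 184 and 1269, Msln at 209 and 842 and, the other way, Lrrn4 at 1048 and 288. In tail tip, where Hoxc13 had 1622 and 1545 reads, the keratinocyte and epithelial list summed to 4.94 and 5.80 CPM and the mesothelial list to 0.629 and 0.906. Whether these cells have a part in the Hox reads was not tested.

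Other genes of the Hox system were described from fixed lists, with the share of all tested genes called the same way in brackets. The TALE homeodomain proteins, which bind DNA together with Hox proteins, had 9 of 9 listed genes tested, and in tail tip against lung 3 were higher (28.2% of all tested genes) and 4 lower (22.3%). Meis1 was lower in tail tip at 7.48 and 7.55 CPM against 32.3 and 30.2 in lung (log2 fold change -2.05, edgeR adjusted p = 0.000157), and Meis2 was lower too (-1.14, adjusted p = 0.00723). Pknox2 was higher (1.34, adjusted p = 0.02).

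Polycomb proteins hold Hox genes silent and the MLL complexes keep them on. Of 16 Polycomb genes, all tested, 2 were higher and 8 lower in tail tip than in lung (28.2% and 22.3% of all tested genes). They were 2 higher and 5 lower in tail tip than in cardiac (18.0% and 15.5%), and 5 higher and 1 lower in lung than in cardiac (17.6% and 20.8%). Ezh2, the histone methyltransferase of dividing cells, was at 180.4 and 176.7 CPM in lung, 113.1 and 76.7 in cardiac and 23.1 and 25.2 in tail tip (tail tip against lung -2.88, edgeR adjusted p = 4.53e-05). Suz12, its partner in the same complex, was at 203.1 and 213.9, 118.2 and 121.9, and 60.7 and 63.2 CPM (-1.75, adjusted p = 7.65e-05), and Cbx2, a reader of its mark, at 22.9 and 24.4, 18.7 and 15.6, and 5.47 and 6.34 CPM (-2.0, adjusted p = 0.000278). Of 9 MLL and trithorax genes, 7 were higher and 0 lower in lung than in cardiac (17.6% and 20.8% of all tested genes). In tail tip 0 were higher and 6 lower than in lung (28.2% and 22.3%), and 0 higher and 2 lower than in cardiac (18.0% and 15.5%). Dpy30, a small subunit of these complexes, was at 52.3 and 58.5 CPM in lung, 16.7 and 18.9 in cardiac and 16.1 and 14.6 in tail tip (tail tip against lung -1.85, edgeR adjusted p = 0.000161). The demethylases Kdm6a and Kdm6b did not pass in any origin comparison. The Cdx genes, which switch on posterior Hox genes in the embryo, had at most 0.039 CPM in any library.

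The non-coding RNAs of the clusters had the pattern of their neighbours in part. Hotair, transcribed against cluster C between Hoxc11 and Hoxc12, had 84 and 72 reads in tail tip and 0 in the 4 other libraries. Hoxa11os had 105 and 99 reads in tail tip, 0 and 0 in lung and 0 and 18 in cardiac libraries. Hoxb5os was read at 6.86 and 8.80 CPM in lung, 5.03 and 4.59 in tail tip and 0 and 0 in cardiac, and the Mir196a-1 locus of cluster B at 5.21 and 5.06, 5.12 and 5.52, and 0 and 0.0327. Polyadenylated RNA does not measure the mature miRNA, so these are reads of longer transcripts over that locus. Of the 15 listed RNAs 9 were tested, 5 higher in tail tip than in cardiac (18.0% of all tested genes), 6 higher in lung than in cardiac (17.6%) and 2 higher in tail tip than in lung (28.2%). Haglr, of cluster D, had no read.

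Most genes that flank the clusters did not share the low level of the cardiac cells. Skap2, beside cluster A, was an exception. It had 17.0 and 16.1 CPM in cardiac, 30.8 and 24.8 in lung and 58.5 and 54.4 in tail tip. Against cardiac it was higher in tail tip (log2 fold change 1.77, edgeR adjusted p = 0.000285) and in lung (0.741, adjusted p = 0.0112). Of the 15 listed, 11 were tested, with 4 higher and 4 lower in tail tip than in lung, where 28.2% and 22.3% of all tested genes were. The counts were 2 higher and 3 lower in tail tip than in cardiac (18.0% and 15.5%), and 3 higher and 1 lower in lung than in cardiac (17.6% and 20.8%). Cbx3, a chromatin protein gene near cluster A, had 206.4 and 213.0 CPM in lung, 92.9 and 84.4 in cardiac and 73.0 and 65.4 in tail tip (tail tip against lung -1.60, edgeR adjusted p = 0.000137). Skap1, an adaptor gene of T cells beside cluster B, had 1.92 and 2.42 CPM in lung, 2.24 and 0.883 in cardiac and 0.126 and 0.151 in tail tip (-3.95, adjusted p = 0.00347). Lnpk, named here for its place beside cluster D, had 62.3 and 55.9 CPM in lung, 49.9 and 59.5 in cardiac and 27.5 and 27.6 in tail tip, next to a cluster with 3 and 1, 20 and 48, and 14 and 21 reads. Evx1 and Evx2, the homeobox genes at the 5′ ends of clusters A and D, had at most 1 read in a library.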

How the data were processed

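RNA-seq of polyadenylated RNA from 6 libraries was used, as the gene counts deposited by the authors. Alignment used STAR 2.0.7 and the build mm39, per the submitters' processing notes; for the counting tool, the annotation and the strand setting, nothing was given in the sources used here. The table's title in the labels names another subject, so columns were matched to libraries by the column names in the labels.

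Genes were tested with edgeR 4.0.16 (R 4.3.3, limma 3.58.1): TMM factors of 0.964 to 1.026, a filter on low counts (minimum count 10) that kept 18143 genes, and the quasi-likelihood test in an additive model of origin and virus with 2 residual degrees of freedom. The Benjamini-Hochberg adjustment ran over all tested genes, with a threshold of 0.05. The procedure was run on simulated counts with the same spread for every gene and changes only in well-read genes. That run does not cover members with few reads. DESeq2 1.42.0, other scalings, no filter, other terms and leaving out each library were alternatives. Ratios between 2 libraries carry exact conditional binomial intervals. Levels were divided by exon length (GENCODE M21, GRCm38, an earlier build than mm39). Figures used Python 3.11.15 and matplotlib 3.10.9.

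The members and the gene lists were chosen with earlier results of these data known. Members at 1 CPM or more are given with values in every library, except an item that is not reported here. Fold changes are given for up to 3 members per cluster with the largest change, for calls against the cluster's direction and for values that changed with an alternative, and up to 3 genes of a list by size of change; names outside this rule were chosen after their values were seen.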

Additional observations from a re-analysis of the deposited data

Results flagged for a closer look

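The Ad-Cre to Ad-GFP ratio of 4 members went one way in one origin and the other way in another, with counting intervals that left out 1 in both (for Hoxc13 in cardiac cells, a lower bound above 1). Each origin has 1 library per virus, so the difference between origins was not tested. Hoxa3 had a ratio of 1.24 in lung (505 and 551 reads) and 0.0710 in cardiac cells (15 and 1). Hoxb5 had 1.17 in lung (415 and 426 reads) and 0.0507 in cardiac cells (21 and 1). Hoxb4 had 2.18 in cardiac cells (21 and 43 reads) and 0.712 in tail tip (255 and 189). Hoxc13 was at least 28.8-fold higher in the cardiac Ad-Cre library (0 and 81 reads) and had a ratio of 0.915 in tail tip (1622 and 1545). All 4 include a cardiac library, and 24.8% of all tested genes with at least 50 reads in a cardiac library had an interval that held 1, against 45.7% in lung and 61.9% in tail tip.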

How the results depend on the processing

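No paired analysis was possible because each group holds 1 library and so no replicate number to pair on, beyond the origin term, which pairs the 2 libraries of an origin in the virus comparison. Among log2 fold changes of single members refitted under the alternatives, 473 kept direction and side of the threshold and 22 kept direction but did not pass; no direction turned. Members that newly passed under an alternative, as some did without a cardiac library, are not in this tally. With a library left out, the lone library of that origin is assumed to vary like the others. Leaving out each library gave 26 to 29 members higher in tail tip than in cardiac and 0 to 1 lower (Hoxd13 without cardiac Ad-GFP, Hoxd9 without cardiac Ad-Cre). It gave 22 to 23 higher in lung than in cardiac and 0 to 4 lower (4 without cardiac Ad-GFP, 1 without cardiac Ad-Cre, 2 without either tail tip library). Tail tip against lung gave 8 to 14 higher and 5 to 14 lower (5 without lung Ad-GFP or tail tip Ad-Cre, 14 without either cardiac library). The virus comparison gave 0 to 1 higher and 0 lower. Members lower in lung than in cardiac numbered 2 with no filter and 1 under DESeq2, against 0. At 0.5 CPM the cardiac Ad-GFP library had 5 members, and at 2 CPM it had 0 and the cardiac Ad-Cre library 1. With a prior count of 0.5, 3 members differed 2-fold in tail tip. For members called under an alternative, the share of all tested genes called in the same fit was not counted. These counts therefore have no background to be set against. Why these values moved was not tested. No result reversed. In cardiac libraries most members had under 50 reads, which limits what a ratio there can show.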
